A study of Mus musculus with 2 samples.

Results

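The genes described here are the 4 adult globin genes Hbb-b1, Hbb-b2, Hba-a1 and Hba-a2 and the heme synthesis gene Alas2, chosen by symbol from the deposited table. They are 5 of 10617 distinct symbols in that table. They were picked because earlier results of the same comparison had shown them far lower in the knockout, so their differences between the libraries are given as descriptions, with no test. The knockout library (KO) came from Six2CreGFP+;p53f/f mouse embryos and the wild-type library (WT) from Six2CreGFP+;p53+/+ embryos. Both were of a mixed CD1 and C57BL strain at embryonic day 15.5, and both carry the Six2 transgene with Cre recombinase and GFP. The floxed p53 alleles are deleted where that Cre is active, in Six2-expressing nephron progenitor cells of the embryonic kidney, which were isolated by flow sorting before RNA extraction. There was 1 library per genotype, and the number of embryos behind each library is not given in the sources used here.

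Red cells carry oxygen on hemoglobin, which is built from alpha globin chains, beta globin chains and heme. In the mouse the alpha chains come from Hba-a1 and Hba-a2 and the adult beta chains from Hbb-b1 and Hbb-b2, while Hbb-y and Hba-x supply the embryonic chains of the first red cells. Alas2 codes for the erythroid form of aminolevulinate synthase, the enzyme that starts heme synthesis in red cell precursors, whereas Alas1 serves that step in other tissues. Erythroid cells express these genes at very high levels. Nephron progenitors form the epithelium of the nephron and are not a site of hemoglobin synthesis.

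The adult globin genes lie in 2 clusters. On GRCm38, Hbb-b1 (ENSMUSG00000052305) spans chromosome 7 from 103826534 to 103828096 and Hbb-b2 (ENSMUSG00000073940) from 103812524 to 103813996, both on the minus strand with 12537 bases between them. GENCODE vM21 and RefSeq name the same loci Hbb-bs and Hbb-bt, and the symbols of the deposited table are kept here. Hba-a1 (ENSMUSG00000069919) spans chromosome 11 from 32283511 to 32284465 and Hba-a2 (ENSMUSG00000069917) from 32296489 to 32297298, both on the plus strand with 12023 bases between them. Alas2 (ENSMUSG00000025270) spans chromosome X from 150547375 to 150570638 on the plus strand.

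The copies within each cluster are nearly the same sequence, which limits how far their values can be told apart. In the GENCODE vM21 coding sequences, without the stop codon, Hbb-b1 and Hbb-b2 differ at 1 of 441 bases, C417T, and Hba-a1 and Hba-a2 at 1 of 426 bases, C381T, counted from 1 at the first base of the start codon. The first base of each token is that of Hbb-b1 or Hba-a1. The stretches around these sites are shown because, in these reference sequences, they hold the only coding bases by which a read could be placed on one copy. The alleles of the mixed strain were not examined. The capital marks the differing base.
Hbb-b1: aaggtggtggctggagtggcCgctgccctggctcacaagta
Hbb-b2: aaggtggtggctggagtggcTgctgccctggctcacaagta
Hba-a1: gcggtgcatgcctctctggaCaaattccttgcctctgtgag
Hba-a2: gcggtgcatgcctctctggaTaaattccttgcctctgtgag
Of all 50-base windows of the Hbb-b1 transcript compared, 381 of 579 (65.8%) also occur in that of Hbb-b2. In the other direction, 381 of 654 windows of Hbb-b2 (58.3%) occur in Hbb-b1. For the alpha pair, 439 of 650 windows of Hba-a1 (67.5%) occur in Hba-a2, and 439 of 505 of Hba-a2 (86.9%) in Hba-a1. How the authors counted reads that align equally well to both copies is not given in the sources used here. No exact 50-base window of these reference transcripts is shared between Hbb-b1 and Hba-a1, Hbb-b1 and embryonic Hbb-y, or Hba-a1 and embryonic Hba-x. Hbb-b2 and Hba-a2 were not compared with the embryonic genes, and mismatches allowed in alignment were not examined. How fully the alpha, beta and embryonic reads were kept apart was therefore not tested.

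The 250 bases upstream of each RefSeq start site (GRCm38.p6) are shown because members of different clusters differed together between the libraries. All 5 members matched an entry of the RefSeq promoter table, the beta genes under the names Hbb-bs and Hbb-bt. Capitals mark the GATA motif (AGATAA counted with TGATAA and with AGATAG and with TGATAG), which GATA factors bind, the CACCC motif, which Klf1 is known to bind in beta globin promoters, and the CCAAT and TATAA motifs of many promoters, each searched on both strands. Neighbouring or overlapping matches run together in capitals. The windows lie at chr7:103827929-103828178 (minus strand, Hbb-b1), chr7:103813924-103814173 (minus strand, Hbb-b2), chr11:32296242-32296491 (plus strand, Hba-a2) and chrX:150547167-150547416 (plus strand, Alas2). The longer gene models of the deposited table reach 168 bases into the first window, 73 into the second, 3 into the third and 42 into the fourth.
Hbb-b1: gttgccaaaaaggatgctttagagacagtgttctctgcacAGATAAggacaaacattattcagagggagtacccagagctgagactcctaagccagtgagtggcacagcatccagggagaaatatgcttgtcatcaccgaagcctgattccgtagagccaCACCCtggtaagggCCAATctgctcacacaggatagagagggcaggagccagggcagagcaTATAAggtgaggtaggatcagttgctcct
Hbb-b2: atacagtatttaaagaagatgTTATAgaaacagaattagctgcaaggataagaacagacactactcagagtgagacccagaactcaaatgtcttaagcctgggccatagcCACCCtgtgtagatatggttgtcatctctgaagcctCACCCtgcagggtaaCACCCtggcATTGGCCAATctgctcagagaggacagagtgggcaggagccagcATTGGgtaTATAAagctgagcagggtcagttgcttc
Hba-a2: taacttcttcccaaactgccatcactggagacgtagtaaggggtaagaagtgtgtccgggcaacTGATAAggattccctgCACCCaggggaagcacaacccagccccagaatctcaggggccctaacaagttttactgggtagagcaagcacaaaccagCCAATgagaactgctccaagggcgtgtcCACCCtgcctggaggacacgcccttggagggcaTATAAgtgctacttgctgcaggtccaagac
Alas2: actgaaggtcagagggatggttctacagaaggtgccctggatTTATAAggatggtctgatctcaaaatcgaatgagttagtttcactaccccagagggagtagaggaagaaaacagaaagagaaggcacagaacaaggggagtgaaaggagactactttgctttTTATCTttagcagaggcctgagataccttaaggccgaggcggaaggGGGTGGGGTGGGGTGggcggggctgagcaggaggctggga
The Hba-a1 window is identical to that of Hba-a2 over all 247 bases that they share when offset by 3 bases. The window of Hbb-b1 and those of both alpha genes hold all 4 motifs, which 1.08% of 32851 promoter windows of this length do. Each motif alone is common, at 26.5% of windows for GATA, 52.0% for CACCC, 33.8% for CCAAT and 22.8% for TATAA. The 6-letter GATA motifs are not in the Hbb-b2 window, and CCAAT is not in the Alas2 window. Alas2 holds its GATA motif 86 to 81 bases upstream of the start, on the opposite strand. These matches describe the letters in the windows and say nothing of which factors bind there.

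The values are read densities, taken to be RPKM (reads per kilobase of exon, per library of a fixed size). With implied depths of about 85600000 reads in KO and 91200000 in WT, the densities of Hba-a1 came to 340 and 9853 reads, those of Hba-a2 to 247 and 6830, and those of Hbb-b2 to 268 and 9294, each whole to within 0.01 of a read. For Hbb-b1 and Alas2 the reads are estimates, since their gene models do not give whole numbers. Intervals are exact (Clopper-Pearson) 95% intervals on these reads and cover counting error only. With no replicate, no spread between embryos, sorts or libraries can be given. The table lists only genes with a corrected p-value of at most 0.05 in the authors' comparison, and a gene that it does not list is not analysed here.

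The sort and the genotype can be checked in the same table. Trp53, the gene for p53, was at 5.38 RPKM in KO and 33.9 RPKM in WT. Six2 was at 509 RPKM in KO and 482 RPKM in WT, and all 10 nephron progenitor markers examined were in the table, 5 higher and 5 lower in KO and none by 1.5-fold. Their summed density was 1118 RPKM in KO and 1065 RPKM in WT, and Cited1, a marker of the least committed progenitors, was at 16.1 RPKM in KO and 23.6 RPKM in WT. Xist, which is expressed from an inactive X chromosome in female cells, was at 70.1 RPKM in KO and 15.7 RPKM in WT, so the libraries also differed in that measure. Its part in the results was not tested.

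Each adult globin gene was more than 20-fold lower in the KO library. The beta gene Hbb-b1, the most abundant member, was at 9.69 RPKM in KO and 237 RPKM in WT, 24.4-fold lower (95% interval 22.6 to 26.5). Hbb-b2 was at 4.45 RPKM in KO and 145 RPKM in WT, 32.6-fold lower (28.8 to 36.9). All values of the beta genes in KO lie far under those in WT. The interval of Hbb-b2 lies above that of Hbb-b1, but the Hbb-b1 reads are estimates. How reads were divided between these near-identical copies is not known, so the order of their folds is uncertain. Hba-a1 was at 4.89 RPKM in KO and 133 RPKM in WT, 27.2-fold lower (24.4 to 30.4). Hba-a2 was at 4.32 RPKM in KO and 112 RPKM in WT, 26.0-fold lower (22.9 to 29.6). The intervals of the alpha genes overlap each other. In bulk RNA such as this, fewer cells of a type and less RNA per cell cannot be told apart.

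Alas2 was far less abundant than the globins and lower by a similar factor. Its density was 0.160 RPKM in KO and 3.37 RPKM in WT, 21.0-fold lower (14.8 to 30.7, from about 33 and 738 reads). The nearest whole reads that give exactly this ratio are 26 in KO and 582 in WT, or 39 and 873, with intervals of 14.2 to 32.4 and 15.2 to 29.8. The interval overlaps those of all 4 globin genes. In the authors' deposited table, which scales the libraries slightly differently, Alas2 was 20.2-fold lower in KO and the globins were 23.5-fold (Hbb-b1), 31.3-fold (Hbb-b2), 26.1-fold (Hba-a1) and 24.9-fold (Hba-a2) lower, each with a corrected p-value listed as 0. Those p-values compare 2 libraries, not the genotypes.

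**Figure D1:**
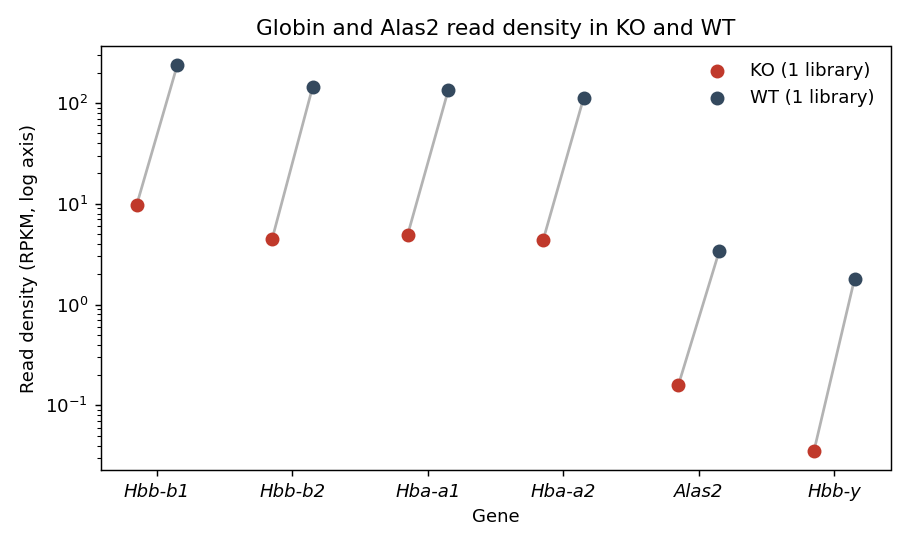
Read density in RPKM on a log axis of the adult globin genes, Alas2 and the embryonic globin Hbb-y, with KO on the left and WT on the right of each pair, 1 library each. All KO points lie below their WT points, and the lines are of similar slope, from 21.0-fold for Alas2 to 51.2-fold for Hbb-y, whose KO value rests on about 2 reads.

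The place of these genes within each library shows the same gap. In the KO library Hbb-b1 ranked 4548 and Alas2 9435 among 10617 genes by density, while in the WT library they ranked 206 and 6942. Hbb-b2, Hba-a1 and Hba-a2 ranked 6297, 6126 and 6333 in KO and 348, 391 and 460 in WT. Thus Hbb-b1 stood beside Rnf215 and Mink1 in density in KO, and between Ifitm2 and Ptms in WT. Summed over the 4 genes, adult globin density was 23.4 RPKM in KO and 627 RPKM in WT, 26.8-fold lower (25.4 to 28.2). A sum of reads would not depend on how they were divided between copies, as long as each was counted once. The summed density depends on it in part, because the gene models differ in exon length. These are 768 and 703 bases for Hbb-b1 and Hbb-b2, and 812 and 667 for Hba-a1 and Hba-a2. The summed density made up 0.00688% of all listed density in KO and 0.179% in WT.

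On the log2(RPKM + 1) scale, which understates folds at low density, the sum differed by -4.69 between KO and WT. The adult globin genes were the 4 lowest of all 10617 genes on that scale, at -4.74 for Hbb-b2, -4.51 for Hba-a1, -4.47 for Hbb-b1 and -4.41 for Hba-a2. Alas2, at -1.91, was in place 22. All 5 were at least 1.5-fold lower, where 5.49% of all listed genes were, but the genes were chosen for this difference and nothing is read from the count. By the plain ratio of densities, 36 of 10372 genes detected in both libraries (0.347%) were at least 20-fold lower in KO, all 5 members among them.

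**Figure D2:**
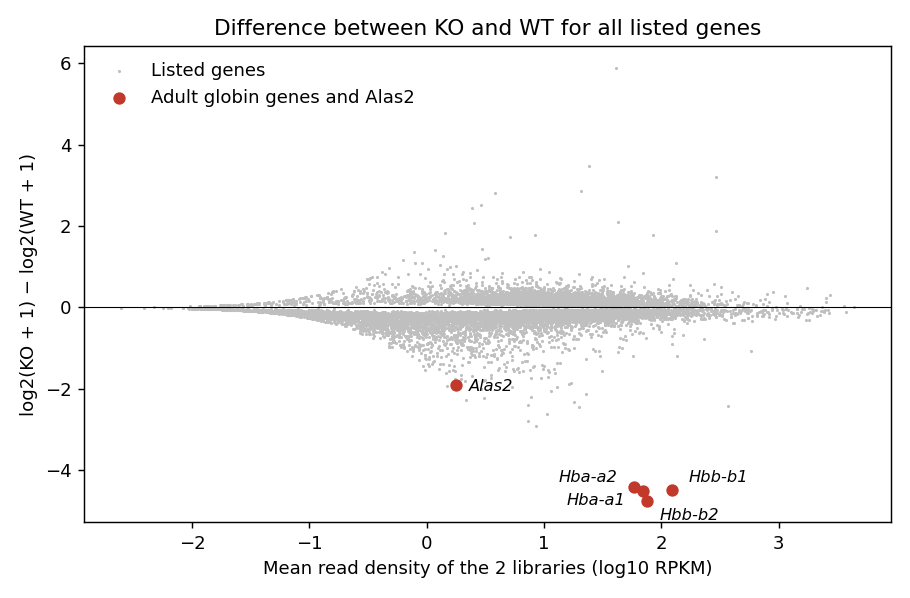
Difference between KO and WT on the log2(RPKM + 1) scale against the mean density of both libraries in log10 RPKM, 1 point per listed gene. The adult globin genes lie at -4.41 to -4.74, apart from all other genes, and Alas2 lies at -1.91 among genes of low density.

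The make-up of the globin signal comes from the same densities by which the genes were chosen, so it is given as a description, and genes that are lower by similar factors keep similar shares. Beta globin made up 60.5% of adult globin density in KO (95% interval 58.0 to 63.0) and 60.9% in WT (60.4 to 61.3). Beta density was 1.53 times alpha density in KO (1.38 to 1.71) and 1.56 times in WT (1.53 to 1.59). Hba-a1 held 53.1% of alpha density in KO (48.9 to 57.2) and 54.2% in WT (53.5 to 55.0). For these measures the KO interval contains the WT value. Alas2 amounted to 0.686 RPKM per 100 RPKM of adult globin in KO (0.471 to 0.968) and 0.537 in WT (0.499 to 0.578), again with overlapping intervals.

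Within the beta pair the shares differed more. Hbb-b1 held 68.5% of adult beta density in KO (65.3 to 71.6) and 62.0% in WT (61.4 to 62.6), with counting intervals that do not overlap. Since the copies share most of their sequence, the split within the pair is uncertain. Embryonic Hbb-y was a small fraction of the beta signal in both libraries, at 0.249% in KO (0.0302 to 0.897) and 0.472% in WT (0.386 to 0.571) of the sum of Hbb-y and the adult beta genes.

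**Figure D3:**
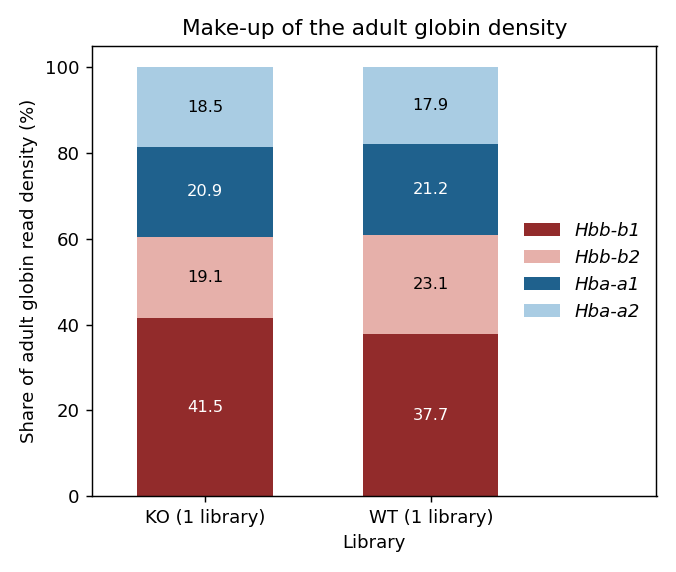
Share in percent of the summed adult globin read density held by each gene, with the KO library on the left and the WT library on the right. The beta genes together hold 60.5% in KO and 60.9% in WT, while Hbb-b1 holds 41.5% of the total in KO and 37.7% in WT.

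Other globins were also lower. Of 12 further globin genes examined, 3 were in the table, and all 3 were lower in KO, as were 71.9% of all genes under 7.30 RPKM, the range in which they lie. Embryonic beta-like Hbb-y was at 0.0353 RPKM in KO and 1.81 RPKM in WT, a ratio of 0.0195 (0.00245 to 0.0759, about 2 and 104 reads). Embryonic alpha-like Hba-x was at 0 in KO and 0.210 RPKM in WT (about 18 reads), at least 5.63-fold lower against a floor of 3 reads in the KO library. The exact interval, which also covers the counting error of the WT reads, has a lower bound of 4.13-fold. Both embryonic genes thus lay in the same direction as the adult ones, at a level where few reads set the fold. Cygb, or cytoglobin, is an oxygen-binding globin of fibroblast-like cells rather than of red cells. It was at 1.68 RPKM in KO and 4.33 RPKM in WT, 2.58-fold lower (2.28 to 2.94), a much smaller factor.

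The enzymes of heme synthesis that all cells use did not share the size of the Alas2 difference. Of 9 enzymes of the pathway, 4 were in the table, 3 lower (Alas2 among them) and 1 higher in KO, where 63.9% of all listed genes were lower. Their median ratio was 0.851, and Alas2 was the only one past 1.5-fold. Both the count and the median include Alas2, which was chosen for its difference. Without Alas2 the ratios ran from 0.782 to 1.17. Alad, which joins aminolevulinate into porphobilinogen, was at 9.52 RPKM in KO and 8.13 RPKM in WT, a ratio of 1.17 (1.09 to 1.26). Ppox, which oxidises protoporphyrinogen in the mitochondrion, was at 11.8 RPKM in KO and 15.1 RPKM in WT, a ratio of 0.782 (0.752 to 0.812). All listed genes had a median ratio of 0.902, so Alad and Ppox lie within a modest range around it. Alas1 and the other 4 enzymes outside the table are not analysed here.

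Genes of heme and iron handling mostly differed little. Of 35 examined, 19 were in the table, 15 lower and 4 higher in KO, with a median log2(RPKM + 1) difference of -0.20 against -0.11 over all listed genes, of which 63.9% were lower. On that scale 2 of the 19 were at least 1.5-fold lower, where 5.49% of all listed genes were. Slc40a1, or ferroportin, the iron exporter that macrophages express strongly, was at 3.74 RPKM in KO and 8.26 RPKM in WT. Hmox1, which breaks heme down, was at 3.97 RPKM in KO and 6.83 RPKM in WT. The heme binding protein gene Hebp2, at 1.15 RPKM in KO and 1.83 RPKM in WT, passed 1.5-fold only as a plain ratio. Tfrc, the transferrin receptor through which erythroid and dividing cells take up iron, was higher, at 33.0 RPKM in KO and 28.1 RPKM in WT. Also higher were Ireb2, an iron-sensing RNA-binding protein, at 28.9 RPKM in KO and 23.1 RPKM in WT, and the poly(C)-binding protein gene Pcbp1 at 487 RPKM in KO and 478 RPKM in WT. Ferritin chains were abundant in both, with Fth1 at 407 RPKM in KO and 446 RPKM in WT and Ftl1 at 453 RPKM in KO and 564 RPKM in WT.
The remaining 10 genes of this list, Slc25a39, Abcb10, Tmem14c, Slc48a1, Hmox2, Blvrb, Aco1, Glrx5, Iscu and Pcbp2, were all lower in KO. Their ratios ran from 0.782 (Hmox2) to 0.943 (Abcb10).

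Erythroid genes outside hemoglobin synthesis are given by abundance, since listed genes of low density differed more across the whole table. Only genes with a corrected p-value of at most 0.05 are listed, so a gene with few reads is listed only if its fold is large. Of 69 examined in 3 lists, for transcription, the red cell membrane and other functions, 48 were in the table, 36 lower and 12 higher in KO. On the log2(RPKM + 1) scale 4 of these 48 were at least 1.5-fold lower, where 5.49% of all listed genes were, and their median was -0.13. Of the 18 with a mean density at or over 7.30 RPKM, the upper 50% of the table, 11 were lower, against 55.8% of all genes in that range, and none was 1.5-fold lower, where 2.41% of all genes in that range were on the log2(RPKM + 1) scale and 2.67% as a plain ratio. Both counts are near those of the whole table. Of the 30 under that density, 25 were lower, against 71.9% of all genes under it, and 21 were at least 1.5-fold lower as a plain ratio, against 42.5%. Their median was 2.31-fold lower in KO, against 1.35-fold over all genes under that density. These 30 genes were also less dense, with a median of 0.447 RPKM in WT against 1.57 RPKM for all genes in that range. The comparison is therefore not matched for density. As a plain ratio 2 of the 48, Bcl11a and Cd44, were at least 1.5-fold higher, where 4.38% of all listed genes were.

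Among the transcription factors, Gata2, of early blood progenitors and endothelium, was at 1.06 RPKM in KO and 2.37 RPKM in WT. Lmo2, a partner of GATA factors, was at 0.474 RPKM in KO and 1.14 RPKM in WT, and Lyl1, of early blood cells, at 0.156 and 0.426 RPKM. Klf1, which activates adult beta globin, was at 0.297 RPKM in KO and 0.515 RPKM in WT, 1.73-fold lower (1.16 to 2.63), a far smaller factor than the globins. Gata1, the central erythroid factor, was at 0 in KO and 0.0360 RPKM in WT, about 8 reads, which is at least 2.50-fold lower against a floor of 3 reads, with a lower bound of 1.60-fold by the exact interval. The widely expressed Ldb1 and Mafg were at 64.0 and 22.1 RPKM in KO and 68.1 and 23.0 RPKM in WT. Bcl11a, which represses fetal globin genes in humans, was at 0.328 RPKM in KO and 0.161 RPKM in WT.

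Of the 14 red cell membrane genes in the table, 10 were lower and 4 higher in KO. Slc4a1, the band 3 anion exchanger, was at 0.0286 RPKM in KO and 0.164 RPKM in WT, 5.71-fold lower (3.08 to 11.6). Epb4.9, or dematin, was at 0.237 RPKM in KO and 0.763 RPKM in WT, and the tetraspanin gene Tspan33 at 1.73 and 2.27 RPKM. The water channel Aqp1, which red cells share with renal proximal tubule and endothelium, was at 0.765 RPKM in KO and 5.22 RPKM in WT. Epb4.1, Gypc and Cd24a, found in many cell types, were at 16.1, 17.9 and 727 RPKM in KO and 19.1, 19.5 and 645 RPKM in WT. Besides Cd24a, the higher genes were Cd44, at 2.10 RPKM in KO and 1.11 RPKM in WT, Spnb1, the beta spectrin of red cells, at 0.597 and 0.458 RPKM, and Xk, a membrane transport protein, at 0.934 and 0.773 RPKM. The ratio of Spnb1 was 1.30 (1.16 to 1.47).

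Of the other erythroid genes, Ube2l6 was at 2.13 RPKM in KO and 4.25 RPKM in WT, and Car2, a carbonic anhydrase also found in kidney, at 1.22 and 2.47 RPKM. Pklr, the pyruvate kinase of red cells and liver, was at 0.0556 RPKM in KO and 0.487 RPKM in WT, 8.76-fold lower (5.29 to 16.5). Trim10, known from terminal erythroid cells, had about 1 read in KO and 32 in WT, a ratio of 0.0333 (0.000818 to 0.199). The antioxidant genes Gpx1 and Prdx2, abundant in red cells and elsewhere, were at 138 and 93.0 RPKM in KO and 171 and 104 RPKM in WT. Of the 15 defining erythroid markers examined, Alas2 included, 9 were in the table and all 9 were lower in KO, as were 71.9% of all genes under 7.30 RPKM, where they lie. Their summed density was 1.83 RPKM in KO and 6.91 RPKM in WT, and Gata1 alone was at 0 in KO. Without Alas2, which was chosen for its difference, the sum was 1.67 RPKM in KO and 3.54 RPKM in WT. That is 2.12-fold lower in place of 3.78-fold, and Car2 alone held 1.22 and 2.47 RPKM of these sums. The median of the 8 markers other than Alas2 was 3.66-fold lower, against 1.35-fold over all genes under 7.30 RPKM. All 8 were at least 1.5-fold lower as a plain ratio, against 42.5% of the genes under that density. The median density of the 8 in WT, 0.129 RPKM, was also under the 1.57 RPKM of those genes.

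Markers of other cell types that a kidney sort could hold were lower in the same library. All but 1 of them lie under 7.30 RPKM, where 71.9% of all genes were lower, 42.5% were at least 1.5-fold lower as a plain ratio and the median was 1.35-fold lower. All 12 listed leukocyte genes of 13 examined were lower in KO, 1.81-fold to 12.7-fold, with a summed density of 2.92 RPKM in KO and 17.6 RPKM in WT and a median fold of 6.07. Those that differed most on the log2(RPKM + 1) scale were the complement genes C1qb (0.644 RPKM in KO and 4.25 in WT), C1qa (0.382 and 2.71) and C1qc (0.200 and 2.05) and the lysozyme gene Lyz2 (0.212 and 2.70). All 4 listed platelet and megakaryocyte genes of 8 examined were lower, led by the chemokine Pf4 at 0.299 RPKM in KO and 1.48 RPKM in WT. The others were Gp1bb (0.207 RPKM in KO and 0.556 in WT), Itgb3 (0.214 and 0.388) and Itga2b (0.0492 and 0.100), and the sum over the 4 was 0.768 RPKM in KO and 2.52 RPKM in WT.
All 11 endothelial genes were lower, with a summed density of 7.53 RPKM in KO and 19.3 RPKM in WT and a median fold of 3.27. Plvap was at 4.98 RPKM in KO and 10.7 RPKM in WT, Cdh5 at 0.313 and 1.82, Pecam1 at 0.263 and 1.12 and Eng at 0.407 and 1.21. No marker of these 3 lists was at 0 in KO. The part of other cell types in the sort in the globin difference was not tested.

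**Figure D4:**
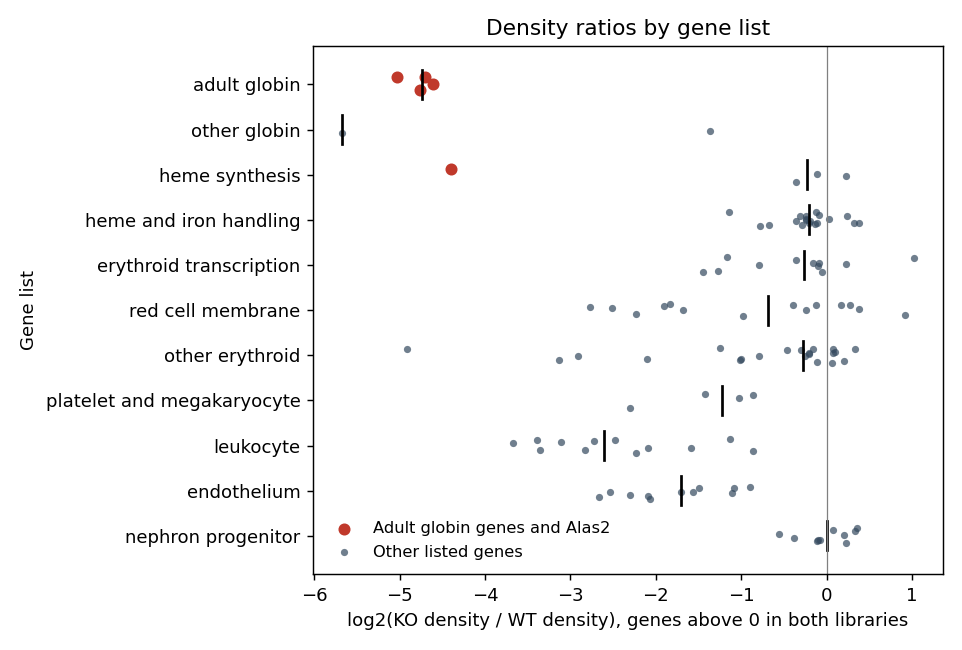
Log2 ratio of KO to WT density for each gene above 0 in both libraries, by gene list, with a vertical bar at the list median over all its genes in the table (genes at 0 in KO included). The adult globin genes and Alas2, 21.0-fold to 32.6-fold lower, lie far to the left. So do Hbb-y (51.2-fold) and Trim10 (30.0-fold), whose KO values rest on about 2 reads and 1 read. Leukocyte and endothelial markers are all below 0, and nephron progenitor markers lie around 0.

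The genes most like the members, by the log2(RPKM + 1) difference over these 2 libraries among genes at or over 7.30 RPKM, came well behind them. Fxyd2, whose product modulates the renal sodium pump, was at 2.25 RPKM in KO and 18.9 RPKM in WT, a difference of -2.62. Trp53 itself had a difference of -2.45. Ly6a, a surface antigen of endothelial and blood progenitor cells, was at 5.25 RPKM in KO and 30.4 RPKM in WT (-2.33), Ttc36 at 2.12 and 13.4 RPKM (-2.21), and the collagen gene Col1a1 at 7.82 and 37.8 RPKM (-2.14). With 2 libraries this likeness is only a similar difference.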

How the data were processed

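Sorted embryonic mouse kidney cells gave 1 RNA library for each genotype. The submitters' processing notes name CASAVA 1.8, Novoalign 2.08.02, FastQC and the builds GRCm38 and mm10 without a role, and no source used here gives the counting rule. The authors' deposited table, per its headers, holds read densities, a ratio, a signed fold change (treated as a score) and a p-value before and after correction. Judged from the values, the authors deposited densities in RPKM, already scaled to depth and gene length. Of 171 genes at 0 in KO and 75 at 0 in WT, 150 and 70 showed deposited fold changes at integer multiples of a common step (within 0.01), and of those with a gene model 101 of 149 and 48 of 67 gave the same depth. Reads were estimated from density, GENCODE vM21 exon length and that depth.

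Differences are log2(RPKM + 1) of KO less that of WT, with plain density ratios beside it and exact binomial intervals. Genes at or over the median density of 7.30 RPKM were taken as over the floor, and 1.5-fold was the size rule. For the 8 symbols with several rows, the densest row was kept. The members and the 11 gene lists were chosen with earlier results of these data known. Named genes were the members, the listed globin, heme and iron genes, from other lists the 4 that differed most in the direction of the list median and the 2 most abundant, and the 6 genes most like the members. Some genes that this rule names are not reported here. Klf1 is named by this rule, while Gata1, Bcl11a, Slc4a1, Cd44, Spnb1, Xk, Trim10 and Xist were named after their values were seen. The GC and length correction subtracts each bin's median difference (10 GC bins by 4 length bins). Scripts (Python 3.11.15, numpy 2.4.6, pandas 2.3.3, scipy 1.17.1, matplotlib 3.10.9) were tested on simulated data.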

Additional observations from a re-analysis of the deposited data

How the results depend on the processing

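The adult globin sum differed by -4.69 and stayed within its counting interval of -4.76 to -4.61 with a pseudocount of 0.25, when centred on the median difference and under the authors' scaling. It was -4.53 with a pseudocount of 4 and -4.59 once corrected by GC and length bins. Alas2 (-1.91) was -3.14 at a pseudocount of 0.25 and -0.82 at 4, and stayed within its interval under the other 3 alternatives. For the single globin genes, 13 of 20 alternative values stayed within the counting interval and 7 moved beyond it, none with a change of sign, over a range of -4.95 to -3.80. The count of other erythroid genes at least 1.5-fold lower, 4, became 0 over the floor, 1 at 2-fold, 9 with a pseudocount of 0.25, 1 with a pseudocount of 4 and 21 as a plain ratio, an alternative chosen after seeing the data. The count of 3 heme synthesis enzymes lower did not change under either rescaling. No paired analysis was possible because each genotype has 1 library. Without replicates, no difference here has a check against biological spread, and folds of genes with few reads, such as Hbb-y and Gata1, are limited by depth.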
